A study of Mus musculus with 20 samples.

Results

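The 36 genes described here encode the machinery with which a lysosome acidifies its lumen and holds the growth kinase mTORC1 on its surface. They were taken by gene symbol, and all 36 were found among the 51456 genes listed in each library: 17 genes of the vacuolar proton pump (V-ATPase), the 5 Ragulator genes, 3 Rag GTPases, 4 genes of mTORC1, 3 of the TSC and Rheb branch, and 4 for folliculin, its 2 partners and the amino acid sensor Slc38a9. The libraries were bulk poly-A RNA-seq of bone-marrow-derived macrophages, which are cells grown from mouse marrow for 6 days in 50 ng/ml CSF-1, the cytokine that drives macrophage growth. Trem2, the gene changed in the mutants, encodes a lipid-sensing receptor of myeloid cells.

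There were 5 libraries from Trem2 knockout mice (label "5bp KO", here KO), 5 from Trem2 R47H knock-in mice (label "R47H KI", here R47H, an arginine-to-histidine substitution) and 10 from wild-type mice (WT). All 20 came from C57BL/6 mice aged 4 to 5 months, and all cultures received the same cytokine. According to the protocol, each genotype comprised 5 animals and the WT mice were littermates, but the labels do not say which WT libraries belong to which line, so all 10 served as controls of both. Each allele is 1 germline change carried by every cell of the animal, and the heterozygous animals that the protocol also mentions have no library here. The p-values below measure the spread between these samples.

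Trem2 itself lay at 23.7 to 24.8 FPKQ in KO libraries and 496 to 794 FPKQ in R47H libraries, against 690.5 to 901 FPKQ in WT libraries (KO against WT, log2 difference -5.00, exact two-sided permutation p = 6.66e-04, the smallest that 3003 splits can give). In R47H libraries its log2 difference from WT was -0.33 (exact two-sided permutation p = 0.0167). FPKQ is the deposited unit. The files do not define it, but it is per length, so that levels of different genes can be compared, and a fixed upper percentile of protein-coding genes lay at 9.98 to 10.03 in every library. In a gene of 2 kb, 1 FPKQ stood for 46.3 to 71.2 fragments per library. Macrophage markers were the highest of the marker lists, with a summed level of 32178 to 34909 FPKQ in KO, 25832 to 28945 FPKQ in R47H and 22310 to 25667 FPKQ in WT. The 7 genes of this list did not all move with the sum. By the test given below, 4 were higher and 2 lower in KO than in WT, and 4 higher and 1 lower in R47H. Among all tested genes 52% were called in KO and 21.2% in R47H. The 6 markers of dividing cells summed to 16.2 to 18.5 FPKQ in KO and 42.9 to 74.7 FPKQ in R47H, against 119 to 151 FPKQ in WT. The 8 osteoclast markers summed to 43.8 to 64.3 FPKQ in KO, 42.6 to 62.2 FPKQ in R47H and 35.1 to 76.4 FPKQ in WT, with Calcr and Oscar at or near 0. The 9 neutrophil genes summed to 98.7 to 129 FPKQ in KO, 86.4 to 150.5 FPKQ in R47H and 70.7 to 107 FPKQ in WT. The 6 dendritic cell genes summed to at most 3.80 FPKQ in any library, and the lists for B cells, T and NK cells, stroma and erythroid cells to at most 0.871 FPKQ. The part of any of these marker differences in the results below was not tested. R47H Rep2 and Rep3 stood apart from the other libraries and favoured short transcripts, so the differences of R47H from WT called among the 36 genes are given with and without them. For the length slope, each gene's log2 level was taken minus its mean over the 20 libraries. The slope of that deviation on log2 transcript length averaged 0.0456 ± 0.0408 in KO (SD, n = 5), -0.0303 ± 0.0809 in R47H (n = 5) and -0.00762 ± 0.0408 in WT (n = 10). A positive slope favours long transcripts. It ran from 0.00558 to 0.107 in KO libraries and from -0.0534 to 0.0607 in WT libraries.

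The V-ATPase is a rotary machine: its V1 sector in the cytosol hydrolyses ATP, and its V0 sector in the membrane carries protons into the lysosome, where digestive enzymes need an acid interior. When amino acids are plentiful, the pump, Slc38a9 and Ragulator load the Rag GTPases, which pull mTORC1 to the lysosomal surface, where Rheb switches it on unless the TSC complex keeps Rheb inactive. Folliculin and its Fnip partners act on RagC and RagD, and macrophages, which digest what they engulf, are rich in lysosomes.

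Most pump genes were among the abundant transcripts of these cells, and the 4 mTORC1 genes had lower levels, from percentile 33.5 of the tested genes for Mtor to 66.9 for Akt1s1. In WT macrophages the proteolipid Atp6v0c, which forms the rotating ring in the membrane, led the 36 genes with a mean level of 945 ± 42.5 FPKQ (SD, n = 10), at percentile 99.4 of the 10843 genes tested. The nucleotide-binding B subunit Atp6v1b2 followed at 441 ± 34.7 FPKQ, and the next neighbour, the ring subunit Atp6v0b, overlapped it in range at 417 ± 24.1 FPKQ. At the low end, Slc38a9 had a mean level of 4.48 ± 0.221 FPKQ (percentile 21.6), and the Rag GTPase Rragd had 7.13 ± 0.874 FPKQ and the kinase Mtor 7.34 FPKQ, ranges that overlapped each other. Because Atp6v0c has annotated processed copies in the genome, between which the authors' estimator may have divided fragments, its level is uncertain.

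**Figure D1:**
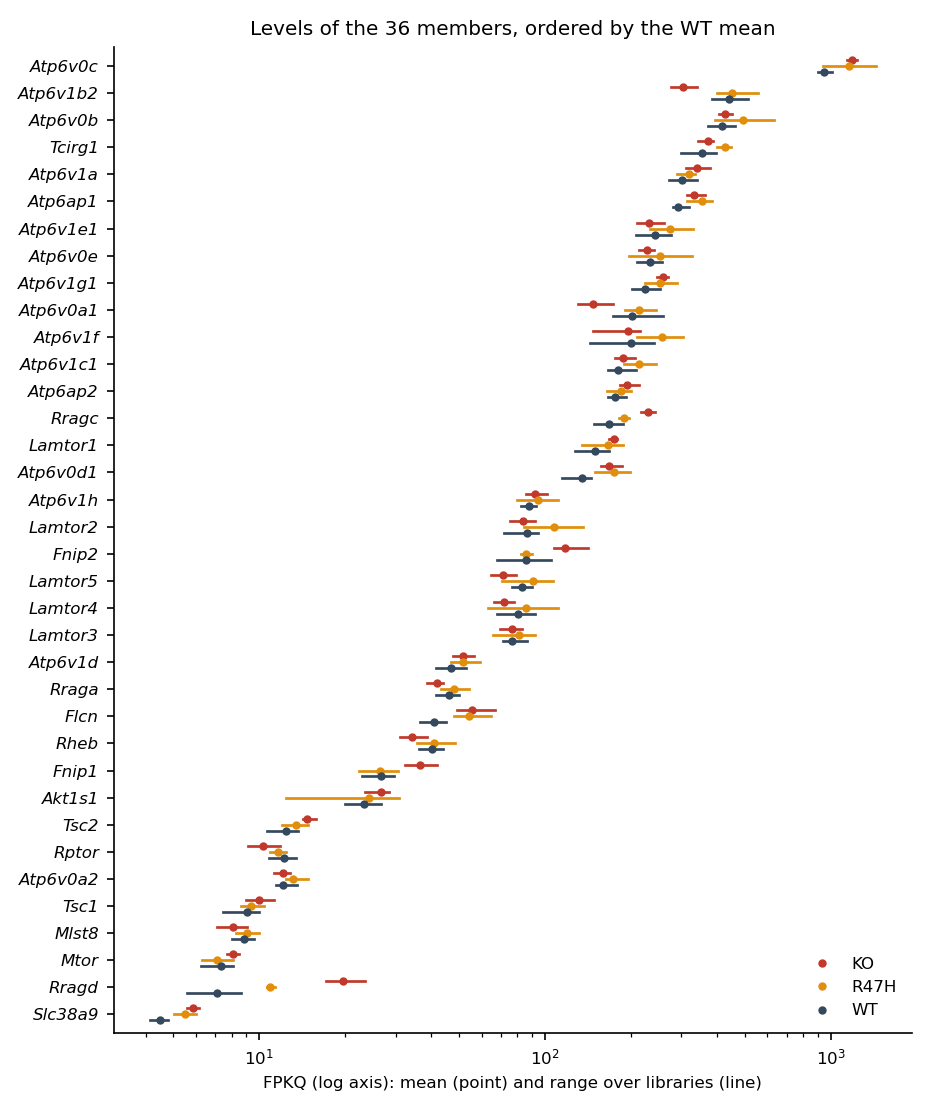
Level of the 36 genes in FPKQ (log axis), ordered by their WT mean, for KO (n = 5), R47H (n = 5) and WT (n = 10) macrophages; points are group means and lines run from the lowest to the highest library. Atp6v0c leads at 945 FPKQ in WT, Slc38a9 is lowest at 4.48 FPKQ, and Rragd shows the widest gap between KO and WT.

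The spread among libraries differed between genes and groups. In KO libraries the coefficient of variation ran from 2.39% for Lamtor1 to 14.1% for Atp6v1f, with a median of 6.82% over the 36 genes. In WT libraries it ran from 4.42% for Atp6ap2 to 13.6% for Atp6v0a1, with a median of 7.16%. In R47H libraries the median was 11.4%, and the highest value, 30.3%, belonged to the mTORC1 inhibitor Akt1s1, which had 12.4 FPKQ in Rep1 and 23.8 to 30.9 FPKQ in the other R47H libraries. Without Rep2 and Rep3 the R47H median was 7.34%. R47H Rep2 and Rep3 lay above the other R47H libraries for all 9 genes whose longest transcript was under 2000 bases (median log2 difference 0.34), but for only 4 of the 14 genes of 4000 bases or more (median -0.081). Across the 36 genes the rank correlation of that difference with length was -0.84, against -0.54 over the 10657 tested genes with a length; the genes share the same 5 libraries, so this is a description.

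**Figure D2:**
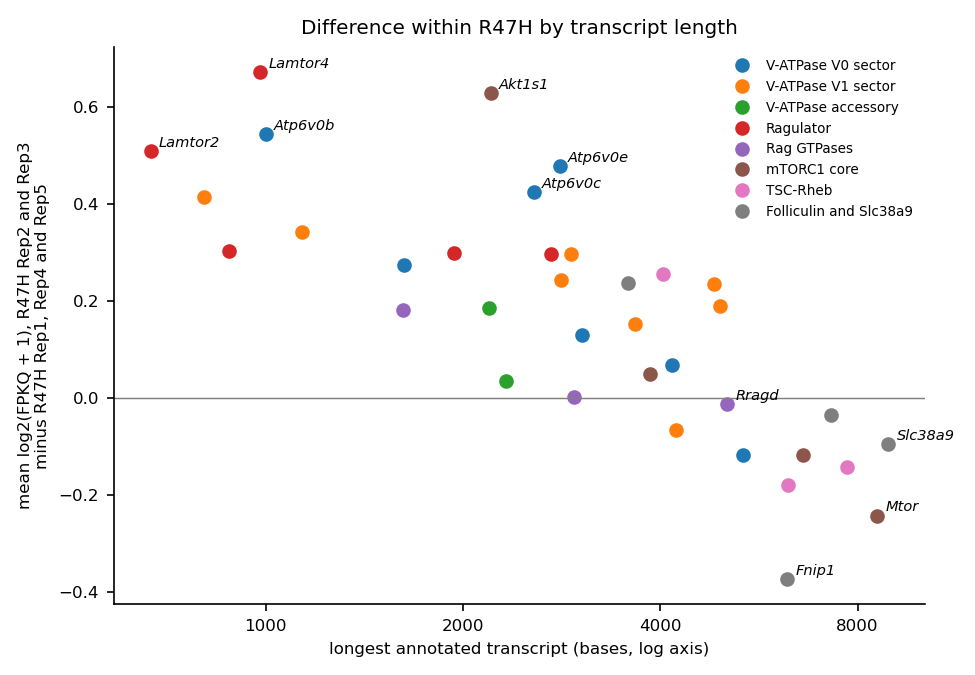
Mean log2 level of R47H Rep2 and Rep3 minus that of R47H Rep1, Rep4 and Rep5 for each of the 36 genes, against the length of its longest annotated transcript in bases (log axis). The 9 genes under 2000 bases all lie above 0, and 10 of the 14 genes of 4000 bases or more lie at or below 0.

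Promoter windows from RefSeq (GRCm38.p6, 250 bases before to 50 after the annotated start) were found for 30 of the 36 genes. They were searched for CACGTG, the palindromic core of sites for the basic helix-loop-helix factors to which TFEB, the regulator of lysosomal genes, belongs; a palindrome reads alike on both strands. It was present in windows of 9 of the 30 genes (30%), against 8.09% of all 27025 genes with a window and 12.5% of the 8343 tested genes with a window. The longer TCACGTG, which contains it, was searched on both strands and was present in 9 of the 30 (30%), against 4.29% of all and 7.53% of tested genes with a window. A 10-base motif that extends the same core on both sides was also searched. It was present in 0 of the 30, against 0.37% of all and 0.911% of tested genes with a window. A motif this rare can be missing from 30 genes by chance, so no conclusion is drawn from its absence. A match is a description, not a bound site. Of the 9 genes with CACGTG, 5 were called higher and 1 lower in KO macrophages than in WT by the test given below, and of the 21 without it, 8 were higher and 4 lower; among all tested genes 28.2% were higher and 23.7% lower. In R47H macrophages 2 of the 9 and 8 of the 21 were higher than in WT and none of the 30 was lower, against 13.4% higher and 7.83% lower among all tested genes. The 5 windows below belong to genes chosen after their values were seen: a pair of Rag GTPases, of which Rragc holds the motif and Rragd does not, a Fnip partner with it, and 2 pump genes with it, of which Atp6v0d1 was called in KO and Atp6v0b was not. Each is written 5′ to 3′ on its gene's strand, with CACGTG in capitals.
Rragd (chr4:32982748-32983047, plus strand): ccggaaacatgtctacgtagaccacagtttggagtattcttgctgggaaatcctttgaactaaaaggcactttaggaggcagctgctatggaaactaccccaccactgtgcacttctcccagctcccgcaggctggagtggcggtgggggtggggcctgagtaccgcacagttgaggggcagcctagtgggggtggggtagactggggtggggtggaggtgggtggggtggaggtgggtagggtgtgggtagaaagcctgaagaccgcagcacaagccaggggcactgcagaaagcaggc
Rragc (chr4:123917183-123917482, plus strand): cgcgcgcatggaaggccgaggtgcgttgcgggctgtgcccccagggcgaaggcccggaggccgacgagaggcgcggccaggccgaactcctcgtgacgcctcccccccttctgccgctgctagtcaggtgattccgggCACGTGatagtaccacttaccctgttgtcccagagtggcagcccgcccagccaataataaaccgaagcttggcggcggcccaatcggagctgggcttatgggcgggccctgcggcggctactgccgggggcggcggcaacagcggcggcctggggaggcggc
Fnip1 (chr11:54437929-54438228, plus strand): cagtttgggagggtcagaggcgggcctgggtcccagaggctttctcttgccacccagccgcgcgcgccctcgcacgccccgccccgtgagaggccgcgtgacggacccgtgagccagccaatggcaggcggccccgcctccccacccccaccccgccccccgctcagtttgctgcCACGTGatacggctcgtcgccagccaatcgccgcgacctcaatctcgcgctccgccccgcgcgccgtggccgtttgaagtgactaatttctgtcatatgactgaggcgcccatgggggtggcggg
Atp6v0d1 (chr8:105566015-105566314, minus strand): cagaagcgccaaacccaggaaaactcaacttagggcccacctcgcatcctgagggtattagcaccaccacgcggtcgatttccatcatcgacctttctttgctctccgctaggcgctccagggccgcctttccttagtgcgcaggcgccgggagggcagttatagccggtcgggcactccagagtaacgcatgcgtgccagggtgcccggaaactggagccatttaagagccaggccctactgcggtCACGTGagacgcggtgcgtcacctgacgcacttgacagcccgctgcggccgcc
Atp6v0b (chr4:117887280-117887579, minus strand): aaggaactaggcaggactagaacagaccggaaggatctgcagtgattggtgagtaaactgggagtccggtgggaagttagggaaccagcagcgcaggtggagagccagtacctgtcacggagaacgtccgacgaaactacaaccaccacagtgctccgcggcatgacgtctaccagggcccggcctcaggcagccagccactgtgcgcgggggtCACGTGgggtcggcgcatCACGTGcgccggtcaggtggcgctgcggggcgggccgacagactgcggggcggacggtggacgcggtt
The motif began 112 bases before the start in Rragc, 75 before it in Fnip1 and 3 before it in Atp6v0d1, and it occurred at 36 and 18 bases before the start in Atp6v0b. Its absence from the Rragd window says only that these letters are not in these 300 bases.

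The KO and WT macrophages were compared to ask which genes of the machinery depended on Trem2. Rragd showed the largest difference and the pump subunit Atp6v1b2 the next. Outside the pump the Rag GTPases Rragd and Rragc, folliculin, both Fnip partners, Slc38a9, Lamtor1 and Tsc2 were higher in KO macrophages. Rraga, Lamtor5, Rptor and Rheb were lower. Among the pump genes Atp6v1b2 and Atp6v0a1 were lower, and Atp6v0c and Atp6v0d1 were among those that were higher. Of the 36 genes, 14 were higher and 6 lower in KO macrophages at an adjusted p under 0.05 (limma on log2(FPKQ + 1), Benjamini-Hochberg over 10843 genes), and 16 did not pass. This is to be read against a background of 52% of all tested genes called, 28.2% higher and 23.7% lower. The median log2 difference of the 36 genes was 0.097, against 0.014 over all tested genes. In bulk RNA, fewer cells of a kind and less RNA per cell cannot be told apart. With each library rescaled to the same sum, 9 genes were higher and 8 lower, and the share of higher calls among all called genes was 36.2% in place of 54.3%.

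**Figure D3:**
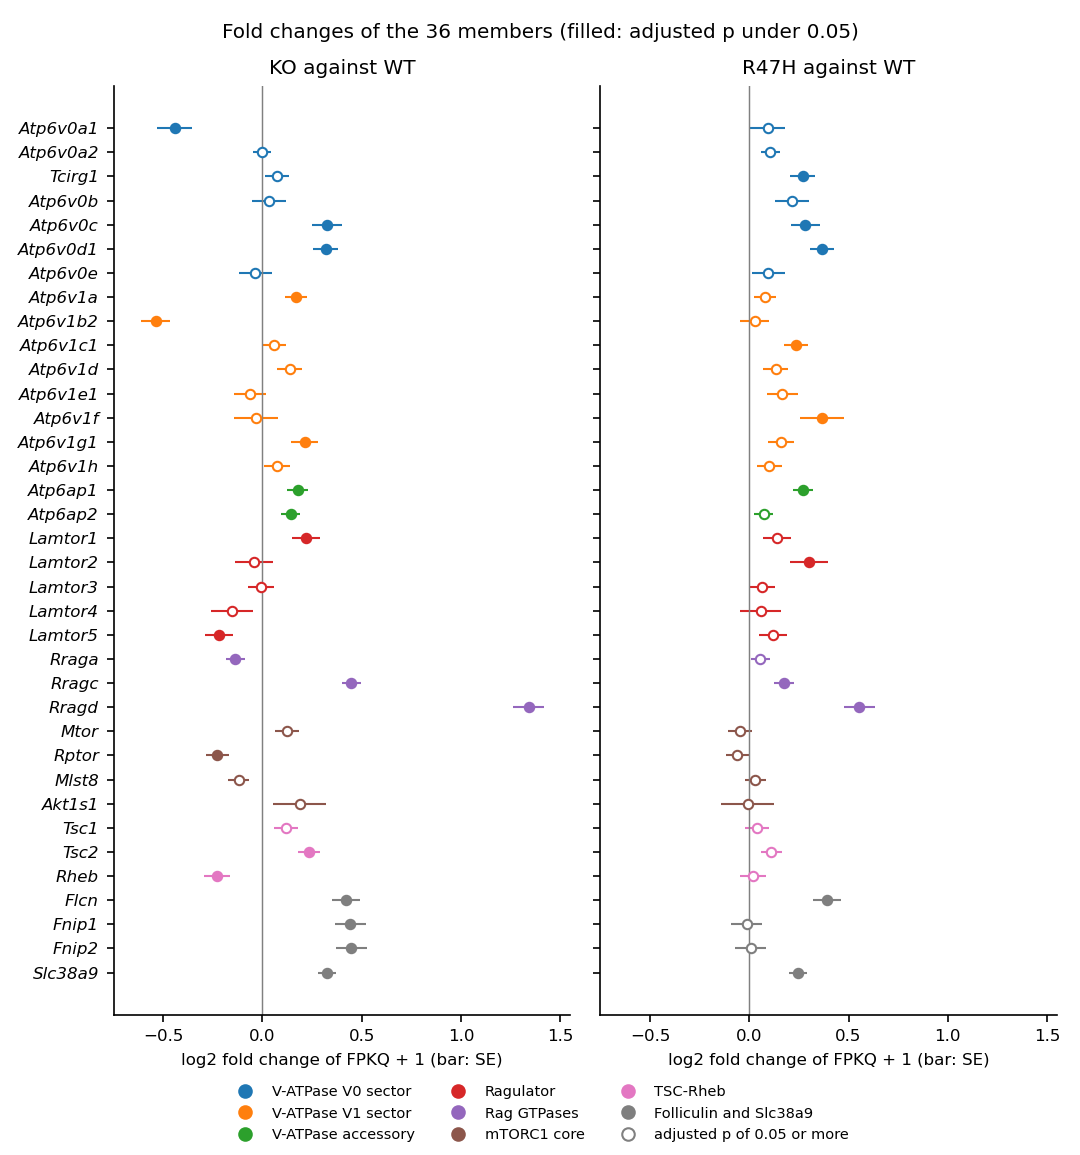
Difference in log2(FPKQ + 1) ± SE of the 36 genes for KO against WT and for R47H against WT, grouped by role; filled points have an adjusted p under 0.05 in limma. Rragd lies farthest to the right in both comparisons, and Atp6v1b2 and Atp6v0a1 lie farthest to the left in KO against WT.

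In the membrane sector, V0, 2 of 7 genes rose and 1 fell in KO macrophages. The a subunit Atp6v0a1, which forms part of the proton path, had 134, 130.1, 153, 148 and 173 FPKQ in KO libraries, against a lowest value of 172, a median of 192 and a highest of 258 FPKQ in WT libraries. Only the highest KO library reached the WT range, and the log2 difference was -0.44 ± 0.088 (SE; limma adjusted p = 2.36e-04). Tcirg1, the a subunit named for its role in osteoclasts and the most abundant a subunit here, averaged 371 ± 18.7 FPKQ in KO and 354 ± 32.6 FPKQ in WT, with overlapping ranges and an adjusted p of 0.337 (limma). Tcirg1 therefore made up 70.0 ± 2.21% of the summed a-subunit level in KO (SD, n = 5), 65.2 ± 1.95% in R47H (n = 5) and 62.4 ± 2.70% in WT (n = 10), a share for which no test was run. The third a subunit, Atp6v0a2, was low and alike in level, at 12.1 ± 0.638 FPKQ in KO and 12.1 ± 0.628 FPKQ in WT.

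The ring subunit Atp6v0c had 1141, 1172, 1195, 1238 and 1174 FPKQ in KO libraries, against 900.1, 936 and 1009 FPKQ as the lowest, median and highest of WT. Every KO library lay above every WT library, with a log2 difference of 0.33 ± 0.074 (limma adjusted p = 8.56e-04). Atp6v0d1, the d subunit that couples the ring to the central stalk, had 163, 168, 186, 164 and 157 FPKQ in KO, against 115, 135 and 145 FPKQ in WT. These groups did not overlap either, with a log2 difference of 0.32 ± 0.062 (limma adjusted p = 1.89e-04). The ring subunit Atp6v0b, at 426 ± 15.6 FPKQ in KO and 417 ± 24.1 FPKQ in WT, and the small membrane subunit Atp6v0e, at 227 ± 12.4 FPKQ in KO and 233 ± 15.4 FPKQ in WT, did not pass the test.

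In the ATP-hydrolysing sector, V1, 2 of 8 genes rose and 1 fell. Atp6v1b2 had 280.2, 276, 312, 311 and 340.5 FPKQ in KO libraries, against 383, 436 and 514 FPKQ as the lowest, median and highest of WT. The groups did not overlap, and its level in KO was 0.689 times that in WT on the FPKQ + 1 scale (log2 difference -0.54 ± 0.074, limma adjusted p = 2.88e-06). The catalytic A subunit Atp6v1a, its partner in the hexameric head of the pump, had 323, 315, 378, 311 and 367 FPKQ in KO, against 273, 301 and 342 FPKQ in WT, with overlapping groups (log2 difference 0.17 ± 0.055, limma adjusted p = 0.0146). The B subunit was 47.3 ± 1.84% of the summed A and B level in KO (SD, n = 5), 58.5 ± 3.10% in R47H (n = 5) and 59.4 ± 1.94% in WT (n = 10). Of the stalk subunits, Atp6v1g1 rose to a mean of 259 ± 8.67 FPKQ in KO, against 224 ± 16.8 FPKQ in WT (log2 difference 0.21 ± 0.066, limma adjusted p = 0.0103). The rotor subunits Atp6v1d and Atp6v1f, the stalk subunit Atp6v1e1, the C subunit Atp6v1c1, which takes part in joining V1 to V0, and the H subunit Atp6v1h, which silences V1 when it is detached, did not pass the test, with log2 differences between -0.064 (Atp6v1e1) and 0.14 (Atp6v1d).

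Both accessory genes rose in KO macrophages. Atp6ap1, which helps to assemble V0, had 313, 318, 339.6, 319 and 364 FPKQ in KO libraries, against 280.5, 286 and 319 FPKQ in WT (log2 difference 0.18 ± 0.051, limma adjusted p = 0.00632). Atp6ap2, also known as the prorenin receptor, had 183, 184, 202, 188 and 213 FPKQ in KO, against 166, 173 and 192 FPKQ in WT (log2 difference 0.14 ± 0.048, limma adjusted p = 0.0169). In both the ranges of KO and WT overlapped. Among the 17 pump genes in all, 6 were higher, 2 lower and 9 did not pass.

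**Figure D4:**
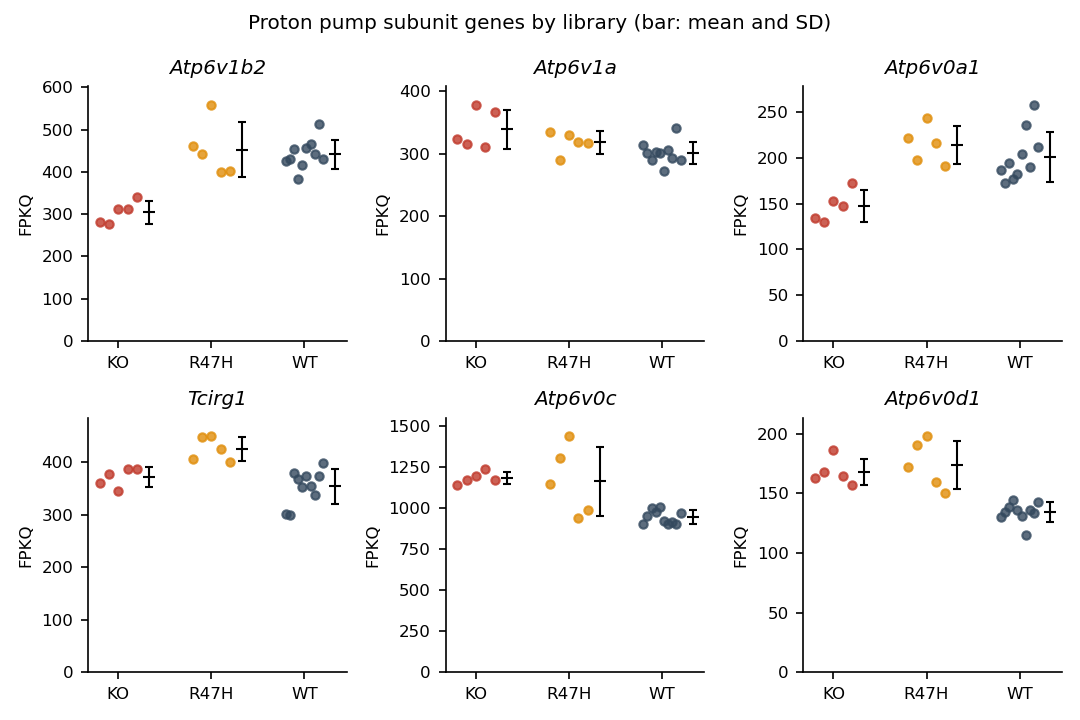
Level in FPKQ of Atp6v1b2, Atp6v1a, Atp6v0a1, Tcirg1, Atp6v0c and Atp6v0d1 in each KO, R47H and WT library, with the mean ± SD of each group. KO libraries lie below all WT libraries for Atp6v1b2 and above all of them for Atp6v0c and Atp6v0d1, while all R47H libraries lie above all WT libraries for Tcirg1 and Atp6v0d1.

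Ragulator, the lysosomal anchor of the Rag GTPases, had 1 of its 5 genes higher, 1 lower and 3 that did not pass in KO macrophages. Lamtor1, the lipid-anchored scaffold that holds the other Ragulator proteins on the membrane, had 178, 176, 174, 175 and 167 FPKQ in KO libraries, against 127, 153 and 167 FPKQ in WT. The lowest KO library lay just above the highest WT library, and the log2 difference was 0.22 ± 0.071 (limma adjusted p = 0.0134). Lamtor5, which pairs with Lamtor4, fell to a mean of 71.1 ± 5.84 FPKQ in KO, against 82.9 ± 4.43 FPKQ in WT, with overlapping groups (log2 difference -0.22 ± 0.070, limma adjusted p = 0.0124). Lamtor4 had a log2 difference of -0.16 (limma adjusted p = 0.229), and the pair Lamtor2 and Lamtor3 had -0.043 and -0.0087.

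The Rag GTPases, which work as pairs of RagA or RagB with RagC or RagD, held the largest difference of the 36 genes. Rragd (chr4:32983037-33022180, plus strand, GRCm38) had 19.4, 17.1, 23.4, 17.2 and 21.2 FPKQ in KO libraries, against 5.59, 7.05 and 8.66 FPKQ as the lowest, median and highest of WT. Every KO library lay far above every WT library, and the level was 2.53-fold higher on the FPKQ + 1 scale (log2 difference 1.34 ± 0.077, limma adjusted p = 4.61e-12). Rragc (chr4:123917446-123936997, plus strand) had 219, 224, 243, 216 and 242 FPKQ in KO, against 148, 168 and 188 FPKQ in WT. It too rose without overlap, by a log2 difference of 0.45 ± 0.049 (limma adjusted p = 1.11e-07). Rragc stayed the far more abundant of these alternative partners, and Rragd made up 7.88 ± 0.682% of their summed level in KO (SD, n = 5), 5.45 ± 0.290% in R47H (n = 5) and 4.07 ± 0.310% in WT (n = 10). Rraga, which pairs with either, was slightly lower at 41.8 ± 2.04 FPKQ in KO and 46.0 ± 2.37 FPKQ in WT, with overlapping groups (log2 difference -0.14 ± 0.049, limma adjusted p = 0.0243).

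Folliculin, both Fnip partners and Slc38a9 rose in KO macrophages, 4 of the 4 genes of their list, and in none of the 4 did a KO library overlap WT. Of all tested genes 28.2% were called higher in KO, and 15.4% had every KO library above every WT library. Flcn (chr11:59791408-59810016, minus strand), the folliculin gene, whose product activates the GTPase of RagC and RagD, had 53.0, 53.0, 49.3, 54.6 and 66.7 FPKQ in KO libraries, against 36.6, 40.9 and 45.0 FPKQ in WT. Its log2 difference was 0.42 ± 0.071 (limma adjusted p = 3.75e-05). Fnip1 (chr11:54438199-54518235, plus strand), a folliculin partner, had 35.0, 35.0, 38.4, 32.4 and 42.0 FPKQ in KO, against 22.9, 27.1 and 29.5 FPKQ in WT (log2 difference 0.44 ± 0.078, limma adjusted p = 6.52e-05). The alternative partner Fnip2 (chr3:79455974-79567796, minus strand) had 111, 112, 115, 108 and 142 FPKQ in KO, against 68.1, 88.1 and 105 FPKQ in WT (log2 difference 0.45 ± 0.078, limma adjusted p = 5.84e-05). Fnip2 was 76.2% of the summed Fnip level in KO, 76.5% in R47H and 76.3% in WT. Slc38a9 (chr13:112660751-112738749, plus strand), a lysosomal amino acid transporter that senses arginine, had 5.85, 6.14, 6.07, 5.65 and 5.58 FPKQ in KO, against 4.14, 4.48 and 4.79 FPKQ in WT. It was low in every group and its replicates were tight, with a log2 difference of 0.32 ± 0.045 (limma adjusted p = 3.18e-06).

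**Figure D5:**
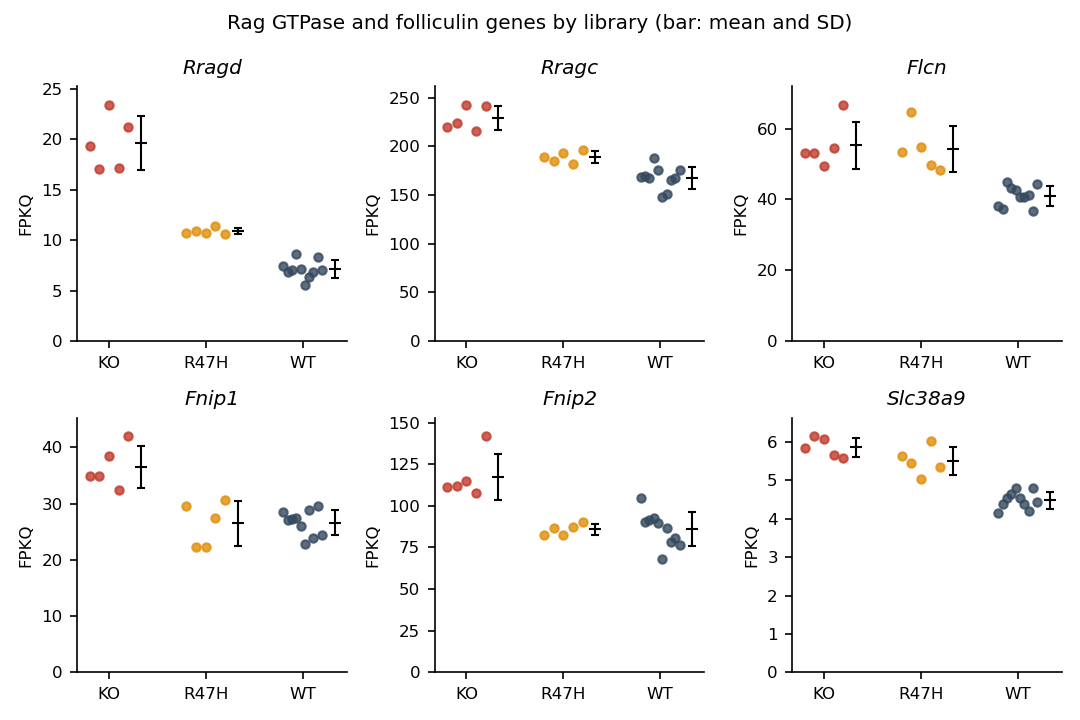
Level in FPKQ of Rragd, Rragc, Flcn, Fnip1, Fnip2 and Slc38a9 in each KO, R47H and WT library, with the mean ± SD of each group. KO libraries lie above all WT libraries in the 6 panels, and R47H libraries lie above all WT libraries for Rragd, Flcn and Slc38a9.

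The kinase complex and the Rheb branch changed less. Of the 4 mTORC1 genes, the scaffold Rptor, which brings substrates to the kinase, had 10.4, 9.13, 9.83, 10.1 and 11.9 FPKQ in KO libraries, against 10.8, 12.3 and 13.4 FPKQ in WT, with overlapping groups (log2 difference -0.23 ± 0.058, limma adjusted p = 0.00231). Mtor, Mlst8, a small subunit bound to the kinase domain, and Akt1s1 did not pass, with log2 differences of 0.13, -0.12 and 0.19. Tsc2, the subunit of the TSC complex that inactivates Rheb, rose to a mean of 14.7 ± 0.593 FPKQ in KO, against 12.4 ± 0.888 FPKQ in WT, without overlap (log2 difference 0.23 ± 0.054, limma adjusted p = 0.00106). Rheb, the small GTPase that activates mTORC1, fell to 34.3 ± 3.11 FPKQ in KO, against 40.3 ± 2.48 FPKQ in WT, with overlapping groups (log2 difference -0.23 ± 0.064, limma adjusted p = 0.00490). Tsc1, the partner that stabilises Tsc2, did not pass (log2 difference 0.12, limma adjusted p = 0.106).

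In all, KO and WT libraries did not overlap for 11 of the 36 genes, 10 above and 1 below WT, against 28.7% of all tested genes, 15.4% above and 13.3% below. Under every one of the 35 alternative settings 8 of the higher genes (Rragd, Rragc, Flcn, Fnip1, Fnip2, Slc38a9, Atp6v0c and Atp6v0d1) and 3 of the lower genes (Atp6v1b2, Atp6v0a1 and Rptor) kept their call. The call of Rraga was lost without KO Rep1 (log2 difference -0.11, limma adjusted p = 0.0913). Those of Atp6ap2 (0.13, adjusted p = 0.0522) and Atp6v1a (0.13, adjusted p = 0.0693) were lost without KO Rep3, and also without KO Rep5 (0.11, adjusted p = 0.0748 for Atp6ap2 and 0.14, adjusted p = 0.0559 for Atp6v1a, all limma). Against WT Rep1 to Rep5 alone Lamtor1 and Lamtor5 were lost, and against WT Rep6 to Rep10 alone Atp6ap1, Atp6ap2, Atp6v1a, Atp6v1g1 and Rraga were. With equal sums Atp6ap1, Atp6ap2, Atp6v1a, Lamtor1 and Tsc2 no longer passed. With the transcript length slope as a covariate Atp6v1a, Lamtor5 and Rraga were lost. In that fit 17 of the 36 genes were higher and 4 lower, against 50.4% of all tested genes called. Beyond that fit, the part of the length slope in the KO differences was not tested.

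The R47H and WT macrophages were compared to ask what the substitution did to the same genes. Rragd, Flcn, Atp6v0d1 and Slc38a9 were higher in R47H macrophages too, whereas the Fnip partners and the subunits Atp6v1b2 and Atp6v0a1 did not pass the test. Of the 36 genes 11 were higher, 0 lower and 25 did not pass (limma; at an unadjusted p under 0.05, 16 were higher and 0 lower), against a background of 21.2% of tested genes called, 13.4% higher and 7.83% lower. The median log2 difference was 0.11, against 0.039 over all tested genes. Without R47H Rep2 and Rep3, 7 genes were higher and 1 lower, against a background of 17.4% called. With each library rescaled to the same sum, 5 were higher and 0 lower, and the median difference of the 36 genes turned to -0.0050, while that rescaling shifted the median of all genes by -0.11.

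Rragd had 10.8, 10.9, 10.7, 11.4 and 10.6 FPKQ in R47H libraries, against 5.59, 7.05 and 8.66 FPKQ in WT. The R47H libraries were tight and all above WT, at a log2 difference of 0.55 ± 0.077 (limma adjusted p = 2.07e-05), and 0.56 without Rep2 and Rep3 (adjusted p = 4.54e-04). Rragc averaged 189 ± 5.70 FPKQ in R47H and 168 ± 11.5 FPKQ in WT, with overlapping groups (log2 difference 0.18 ± 0.049, limma adjusted p = 0.0137); without Rep2 and Rep3 the difference was 0.17 and the adjusted p 0.0510. Flcn had 53.3, 64.7, 54.7, 49.7 and 48.2 FPKQ in R47H, against 36.6, 40.9 and 45.0 FPKQ in WT. Those groups did not overlap, at a log2 difference of 0.39 ± 0.071 (limma adjusted p = 3.80e-04), and 0.29 without the pair of libraries (adjusted p = 0.0102). Slc38a9 had 5.64, 5.44, 5.03, 6.01 and 5.35 FPKQ in R47H, against 4.14, 4.48 and 4.79 FPKQ in WT, again without overlap (log2 difference 0.24 ± 0.045, limma adjusted p = 4.33e-04; 0.28 without the pair, adjusted p = 7.30e-04). Fnip1 and Fnip2 averaged 26.5 ± 3.96 and 85.8 ± 3.28 FPKQ in R47H, against 26.6 ± 2.20 and 85.9 ± 10.3 FPKQ in WT.

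Among the pump genes, 6 of 17 rose in R47H macrophages and none of the 17 fell. Atp6v0d1 had 172, 191, 198, 159 and 150.1 FPKQ in R47H libraries, against 115, 135 and 145 FPKQ in WT. The groups did not overlap, and the log2 difference was 0.37 ± 0.062 (limma adjusted p = 1.84e-04), and 0.26 without Rep2 and Rep3 (adjusted p = 0.00726). Tcirg1 had 405, 447, 449, 425 and 399 FPKQ in R47H, against 299, 361 and 398 FPKQ in WT. It was above WT in every library, by a log2 difference of 0.27 ± 0.062 (limma adjusted p = 0.00327), and 0.22 without the pair (adjusted p = 0.0477). Atp6ap1 averaged 354 ± 30.5 FPKQ in R47H and 292 ± 13.1 FPKQ in WT, with overlapping groups (log2 difference 0.27 ± 0.051, limma adjusted p = 5.67e-04; 0.20 without the pair, adjusted p = 0.0177).

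The other calls of R47H against WT were lost without R47H Rep2 and Rep3. Atp6v0c had 1144, 1306, 1436, 938 and 989 FPKQ in R47H libraries, against 900.1, 936 and 1009 FPKQ in WT, so that 3 R47H libraries lay above all WT and 2 among them (log2 difference 0.28 ± 0.074, limma adjusted p = 0.00868; 0.11 without the pair, adjusted p = 0.190). Atp6v1c1 had a log2 difference of 0.23 ± 0.060 (limma adjusted p = 0.00743), and 0.16 without the pair (adjusted p = 0.101). Atp6v1f had 0.37 ± 0.11 (limma adjusted p = 0.0206), and 0.20 without the pair (adjusted p = 0.272); leaving out Rep2 alone or Rep3 alone also ended its call, at adjusted p = 0.0826 and 0.0726. Lamtor2, which with Lamtor3 forms a platform of Ragulator, had 103, 136, 127, 84.3 and 90.1 FPKQ in R47H, against 71.6, 87.4 and 94.8 FPKQ in WT. Its call (log2 difference 0.30 ± 0.096, limma adjusted p = 0.0303) was lost without Rep2 (0.21, adjusted p = 0.136), without Rep3 (0.23, adjusted p = 0.106), without WT Rep7 (0.27, adjusted p = 0.0510) and without the pair (0.095, adjusted p = 0.482). Against WT Rep1 to Rep5 alone Atp6v0c (limma adjusted p = 0.0857) and Lamtor2 (0.0958) were lost. With WT Rep6 to Rep10 as the only controls, Atp6v1c1 (limma adjusted p = 0.0633), Atp6v1f (0.0920) and Lamtor2 (0.0913) were. Equal sums and quantile normalization each ended the calls of Atp6v1c1, Atp6v1f and Lamtor2, and TMM rescaling that of Lamtor2. Lamtor4 had 72.2, 110.1, 111, 63.4 and 72.1 FPKQ in R47H, against 68.1, 81.6 and 92.4 FPKQ in WT, and without Rep2 and Rep3 it was called lower (log2 difference -0.21, limma adjusted p = 0.0489). Tsc2, not called over all libraries, was called higher without that pair (0.18, limma adjusted p = 0.0394).

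R47H libraries lay above all WT libraries for 5 of the 36 genes, Rragd, Flcn, Slc38a9, Atp6v0d1 and Tcirg1, and below for none, against 6.91% of all tested genes, 3.77% above and 3.14% below. Rragd, Flcn, Atp6v0d1 and Atp6ap1 kept their call under all 35 alternatives, while Slc38a9 (0.14, limma adjusted p = 0.0820) and Tcirg1 (0.15, limma adjusted p = 0.101) lost theirs with equal sums, and Tcirg1 also with quantile normalization (0.18, limma adjusted p = 0.0757). The call of Rragc was lost when its only controls were WT Rep1 to Rep5 (0.12, limma adjusted p = 0.0978), with equal sums (0.053, 0.536), with quantile normalization (0.052, 0.558) and with TMM rescaling (0.13, 0.0647). The replicate block ended that call too (0.12, limma adjusted p = 0.135). The 2 comparisons share their WT libraries, so their calls are set side by side only: 7 genes were called higher in both (Rragd, Rragc, Flcn, Slc38a9, Atp6v0c, Atp6v0d1 and Atp6ap1), 7 higher in KO alone, 6 lower in KO alone, 4 higher in R47H alone (Tcirg1, Atp6v1c1, Atp6v1f and Lamtor2), and 12 in neither. These joint counts were not made over all tested genes, of which 52% were called in KO and 21.2% in R47H. They are therefore a description, and nothing particular to the 36 genes is read from them. Whether the mutants differ is asked by the direct comparison that follows.

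Set directly against KO, R47H macrophages had more Atp6v1b2 and Atp6v0a1 and less Rragd, Rragc, Fnip1 and Fnip2. Of the 36 genes 11 were higher and 4 lower in R47H than in KO (limma), against a background of 40.7% of tested genes called, 22.8% higher and 18% lower. Atp6v1b2 had 460.3, 442, 558, 399 and 401 FPKQ in R47H libraries, against 280.2, 276, 312, 311 and 340.5 FPKQ in KO. The mutants did not overlap, at a log2 difference of 0.57 ± 0.086 (limma adjusted p = 3.05e-05). Atp6v0a1 had 221, 197, 244, 216 and 191 FPKQ in R47H, against 134, 130.1, 153, 148 and 173 FPKQ in KO, also without overlap (log2 difference 0.54 ± 0.10, limma adjusted p = 3.16e-04). Rragd differed by -0.79 ± 0.089 (limma adjusted p = 8.63e-07) and Rragc, at 189, 185, 193, 182 and 196 FPKQ in R47H and 219, 224, 243, 216 and 242 FPKQ in KO, by -0.27 ± 0.057 (limma adjusted p = 7.52e-04). Fnip1 had 29.7, 22.4, 22.3, 27.5 and 30.7 FPKQ in R47H, against 35.0, 35.0, 38.4, 32.4 and 42.0 FPKQ in KO (log2 difference -0.46 ± 0.090, limma adjusted p = 4.92e-04). Fnip2 had 82.6, 86.4, 82.6, 87.4 and 90.2 FPKQ in R47H, against 111, 112, 115, 108 and 142 FPKQ in KO (log2 difference -0.44 ± 0.090, limma adjusted p = 6.61e-04). For all 4 of these docking genes every R47H library lay below every KO library.

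Flcn, Slc38a9 and Atp6v0d1 did not pass between the mutants, with means of 54.1 ± 6.49, 5.49 ± 0.365 and 174 ± 20.2 FPKQ in R47H and 55.3 ± 6.65, 5.86 ± 0.249 and 168 ± 11.1 FPKQ in KO. The remaining calls, all higher in R47H, were Atp6v1f (0.40), Lamtor2 (0.34), Lamtor5 (0.34), Rheb (0.25), Atp6v1e1 (0.23), Tcirg1 (0.20), Rraga (0.19), Atp6v1c1 (0.18) and Rptor (0.17), given as log2 differences with limma adjusted p of 0.00245 to 0.0497. R47H libraries lay above all KO libraries for 3 genes and below for 4, against 23.1% of all tested genes, 12.3% above and 10.8% below. Without R47H Rep2 and Rep3, 4 genes were higher (Atp6v0a1, Atp6v1b2, Lamtor5 and Rptor) and 7 lower (Rragd, Rragc, Fnip1, Fnip2, Atp6v0c, Atp6v1g1 and Akt1s1). The background of that fit was 29.8% of tested genes called. Without R47H Rep2 alone or R47H Rep3 alone the higher calls numbered 5 and 6, with 35.65% and 34.52% of tested genes called in either direction. Without KO Rep1 the higher calls numbered 7, with 36.48% of tested genes called. Leaving out R47H Rep3 ended the calls of Atp6v1c1 (limma adjusted p = 0.155), Atp6v1e1 (0.164), Tcirg1 (0.0801), Atp6v1f (0.0525) and Lamtor2 (0.0612). Leaving out R47H Rep2 ended those of Atp6v1c1 (limma adjusted p = 0.0847), Atp6v1e1 (0.0990), Tcirg1 (0.0776), Atp6v1f (0.0518), Lamtor2 (0.0649) and Rptor (0.0541). Atp6v1f was also lost without KO Rep5 (limma adjusted p = 0.0584) and Tcirg1 without KO Rep1 (0.0693) or KO Rep3 (0.0878), and Atp6v1c1, Atp6v1e1 and Rptor, all with an adjusted p just under 0.05, were lost without most of the 20 libraries, 1 at a time. In another fit each mutant was first set against its own 5 WT libraries. It assumed that WT Rep1 to Rep5 belong with KO and WT Rep6 to Rep10 with R47H. It called 2 genes higher (Atp6v1b2 and Rraga) and 1 lower (Rragd), against a background of 14.4% of tested genes called. In that fit Atp6v0a1 differed by 0.28 (limma adjusted p = 0.131), Rragc by -0.17 (0.132), Fnip1 by -0.38 (0.0513) and Fnip2 by -0.18 (0.242), and none of these 4 passed.

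The WT libraries carry replicate numbers 1 to 10, and setting the upper 5 numbers against the lower 5 gives the size of differences with no Trem2 change. Between WT Rep6 to Rep10 and WT Rep1 to Rep5, Atp6v1d was higher (log2 difference 0.20, limma adjusted p = 0.0476) and Fnip2 lower (-0.26, limma adjusted p = 0.0294), against a background of 6.51% of tested genes called, 3.63% higher and 2.88% lower. Fnip2 averaged 78.1 FPKQ in WT Rep6 to Rep10 and 93.8 FPKQ in WT Rep1 to Rep5. Its log2 difference in KO was 0.58 against WT Rep6 to Rep10 (limma adjusted p = 7.67e-06) and 0.32 against WT Rep1 to Rep5 (limma adjusted p = 0.00145). That of Rragd in KO was 1.40 against WT Rep6 to Rep10 and 1.29 against WT Rep1 to Rep5.

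Neighbouring genes of the pathway were counted by list, and the counts are to be read against the 52% of all tested genes called in KO and the 21.2% called in R47H. In KO the share called was 55.6% of the assembly list, 45.5% of GATOR and KICSTOR, 54.5% of the sensors and other regulators, and 50% of the substrates and TFEB family, close to that background. Of the 8 alternative pump subunits 2 were expressed highly enough to test, and both rose in KO macrophages: Atp6v0d2, a d subunit known from osteoclasts and macrophages, averaged 197 FPKQ in KO, 160 FPKQ in R47H and 131 FPKQ in WT (KO against WT 0.59, limma adjusted p = 0.00220), and Atp6v1g2 differed by 0.41 (limma adjusted p = 0.00287). Atp6v0d2 was 53.6% of the summed d-subunit level in KO, 47.8% in R47H and 48.8% in WT. Of 9 genes for pump assembly, 4 rose and 1 fell in KO. Dmxl2, a subunit of the complex that joins V1 to V0, averaged 6.40 FPKQ in KO, 2.89 FPKQ in R47H and 2.22 FPKQ in WT (KO against WT 1.20, limma adjusted p = 1.82e-10), and its partners Dmxl1 (0.53), Wdr7 (0.36) and Rogdi (0.27) rose with it. Vma21, which helps to assemble V0 in the endoplasmic reticulum, fell to 27.4 FPKQ in KO and 33.1 FPKQ in R47H, against 38.1 FPKQ in WT (KO against WT -0.46, limma adjusted p = 8.11e-08).

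Among 11 genes of GATOR and KICSTOR, the complexes that relay amino acid supply to the Rag GTPases, 4 rose in KO (Wdr59 0.21, Wdr24 0.22, Nprl3 0.23 and Sec13 0.14) and 1 fell (Kptn -0.22). Of 11 tested genes for amino acid sensors and other mTORC1 regulators, 5 rose and 1 fell. The largest of these was the fall of Bmt2, which encodes the S-adenosylmethionine sensor Samtor, with a mean level of 24.7 FPKQ in KO and 47.9 FPKQ in R47H, against 60.7 FPKQ in WT (KO against WT -1.26, limma adjusted p = 1.57e-12; R47H against WT -0.34, adjusted p = 7.89e-04). Deptor, an inhibitor that binds mTOR, averaged 7.06 FPKQ in KO, 3.80 FPKQ in R47H and 3.73 FPKQ in WT (KO against WT 0.77, limma adjusted p = 3.86e-09). The leucine sensor Sesn2 differed by 0.34 in KO (limma adjusted p = 0.00102), and also between WT Rep6 to Rep10 and WT Rep1 to Rep5 (-0.28, limma adjusted p = 0.0177), and the arginine sensor genes Gatsl3 (Castor1) and Gatsl2 (Castor2) by 0.32 and 0.24. Ddit4, a stress-induced inhibitor of mTORC1, differed by 0.26 (limma adjusted p = 0.00651). Of 3 tested genes of mTORC2, Mapkap1 rose by 0.22 and Prr5l fell by 0.38 on the log2 scale. Mapkap1 also differed between WT Rep6 to Rep10 and WT Rep1 to Rep5 (0.23, limma adjusted p = 0.0143), and its difference in KO was 0.11 against WT Rep6 to Rep10 alone (limma adjusted p = 0.0998). In R47H macrophages, the assembly list had 1 gene higher (Dmxl2, 0.27) and 1 lower (Vma21, -0.20), GATOR and KICSTOR 1 higher (Wdr24, 0.24), and the sensors 1 higher (Gatsl2, 0.19) and 1 lower (Bmt2).

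Of the 10 genes for mTORC1 substrates and the TFEB family, 4 rose and 1 fell in KO macrophages, and 4 rose and 0 fell in R47H macrophages, 40% of the list (limma). The translation inhibitor Eif4ebp2 averaged 56.6 FPKQ in KO and 47.1 FPKQ in R47H, against 38.7 FPKQ in WT (KO against WT 0.54, adjusted p = 3.72e-10; R47H against WT 0.28, adjusted p = 3.80e-05). Tfec, a TFEB relative of macrophages, averaged 22.7 FPKQ in KO and 15.4 FPKQ in R47H, against 11.3 FPKQ in WT (KO against WT 0.95, adjusted p = 2.83e-09; R47H against WT 0.41, adjusted p = 8.96e-04). The autophagy kinase Ulk1 averaged 15.6 FPKQ in KO and 13.6 FPKQ in R47H, against 11.2 FPKQ in WT. Tfe3, another TFEB relative, was the other gene called in R47H (0.19, adjusted p = 0.00615). The lysosomal calcium channel Mcoln1 rose by 0.37 in KO and the TFEB relative Mitf fell by 0.19, both on the log2 scale. Tfeb itself averaged 34.0 FPKQ in KO, 36.7 FPKQ in R47H and 33.5 FPKQ in WT and was not called.

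Several calls of these neighbouring genes rested on few libraries. Against WT Rep1 to Rep5 alone the KO calls of Atp6v1g2, Rogdi, Nprl3, Sec13, Kptn, Gatsl3, Ddit4 and Mitf were lost. With WT Rep6 to Rep10 as the only controls, those of Wdr59, Wdr24, Kptn, Mapkap1 and Prr5l were. Leaving out KO Rep5 ended the calls of Wdr24 (limma adjusted p = 0.0505) and Nprl3 (0.0701), KO Rep3 those of Sec13 (0.0522) and Prr5l (0.0678), KO Rep4 those of Sec13 (0.0572) and Gatsl3 (0.0632), and KO Rep2 that of Mitf (0.0547). Kptn was lost without KO Rep1, Rep3, Rep4 or Rep5 and without WT Rep4, Rep6, Rep8 or Rep10 (limma adjusted p = 0.0508 to 0.0936). In R47H, Dmxl2 was lost without Rep1 (limma adjusted p = 0.0946) or Rep5 (0.0609), Wdr24 without Rep1 (0.0593), Rep3 (0.0784) or the pair Rep2 and Rep3 (0.0808), and Tfe3 without that pair (0.102).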

How the data were processed

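Expression was measured by strand-specific, poly-A-selected RNA-seq, per the labels' protocols. The deposited values are FPKM-type values named FPKQ, per the file headers, with 1 row per gene; the submitters' processing notes name RSEM and GRCm38, whose versions, and the scaling behind FPKQ, have no entry in the sources used here. No counts were used: 85.9% to 89.8% of low values were whole multiples of 1 fragment within 0.1 fragment, from which relative depth was read, and fragments shared between similar genes were divided by estimation.

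From these values log2(FPKQ + 1) was computed for 10843 genes with a mean FPKQ of at least 1 over 20 libraries, which included all 36 genes described. 1 model of 3 groups was fitted with limma 3.58.1 (lmFit, eBayes with trend) in R 4.3.3, with Benjamini-Hochberg adjustment over all tested genes and a threshold of 0.05; its fold changes understate those of low genes. The WT sets were compared in a model of 4 groups. Trem2 was tested by an exact permutation test. The limma test was also run on simulated data, with normal noise of equal spread in all groups, and its outcome is not given here. Python 3.11.15, numpy 2.4.6, pandas 2.3.3, scipy 1.17.1 and matplotlib 3.10.9 did the rest. Gene coordinates came from GENCODE on GRCm38, promoter sequences from RefSeq on GRCm38.p6.

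The members and lists were chosen with earlier results of these data known. All 36 genes are named; of the other pathway lists, up to 4 genes with the smallest adjusted p are named, plus those that passed where they were 6 or fewer. Alternatives were other pseudocounts, filters, scalings, WT sets, groups in the fit, robust moderation, library weights, the replicate block, and each library left out in turn. Leaving out R47H Rep2 and Rep3 together and a transcript length slope as a covariate were added after seeing the data.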

Additional observations from a re-analysis of the deposited data

Results flagged for a closer look

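In 6 of 108 sets of libraries, 3 groups for each of the 36 genes, 1 library lay far from the others of its group; chance flags about 1 in 20 such sets. Fnip2 had 141.7 FPKQ in KO Rep5 and 107.5 to 114.7 FPKQ in the other KO libraries. Atp6v1f had 147.5 FPKQ in KO Rep5 and 198.4 to 215.1 FPKQ in the other KO libraries. Atp6v0a2 had 14.82 FPKQ in R47H Rep4 and 12.39 to 12.97 FPKQ in the other R47H libraries, and it had 13.6 FPKQ in WT Rep9 and 11.4 to 12.51 FPKQ in the other WT libraries. Atp6v0d1 had 114.8 FPKQ in WT Rep7 and 130.5 to 144.8 FPKQ in the other WT libraries. Lamtor3 had 86.29 FPKQ in WT Rep8 and 71.09 to 79.08 FPKQ in the other WT libraries.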

How the results depend on the processing

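The causes of the following moves in the counts of genes called among the 36 were not tested. For KO against WT, 9 were higher with equal sums, and 3 were lower with the replicate block. Those fits called 51.0% and 40.5% of all tested genes, against 52% in the reported fit. For R47H against WT, 5 were higher with equal sums, 6 with quantile normalization and 7 without R47H Rep2 and Rep3, and 1 was lower without that pair; the share of higher calls over all genes was 20.6% with equal sums, 48.6% with quantile normalization and 46.8% with TMM rescaling, against 63.1% in the reported fit. For R47H against KO, the higher calls numbered 7 with no filter, 7 with equal sums, 6 with quantile normalization, 7 with only those groups fitted, 5 with library weights, 2 with matched WT sets, 4 without the pair and 5 with the length covariate, and the lower calls 8 with quantile normalization, 1 with matched sets and 7 without the pair. Of all tested genes, 18.4% were called there with no filter, 37.4% with equal sums and 38.9% with quantile normalization. The share was 32.5% with only those groups fitted, 33.8% with library weights and 14.4% with matched sets. It was 29.8% without the pair and 31.1% with the length covariate, against 40.7% in the reported fit. Between the WT sets, 0 genes were called with no filter, and 5 each with library weights, without the pair and with the length covariate. The shares of all tested genes were 2.15%, 20.5%, 11.1% and 13.9%, in that order, against 6.51% in the reported fit. Leaving out 1 library in turn gave 12 to 15 higher and 5 to 7 lower for KO against WT, 9 to 14 higher and 0 to 0 lower for R47H against WT, 5 to 13 higher and 4 to 5 lower for R47H against KO, and 0 to 3 between the WT sets. It gave Trem2 differences of -5.03 to -4.99 in KO and -0.40 to -0.24 in R47H, where the reported -0.33 (exact p = 0.0167) was -0.27 (exact p = 0.135) against WT Rep6 to Rep10 alone.

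The direction reversed for Lamtor2 in KO against WT with the length covariate (0.13, limma adjusted p = 0.00985, against -0.043), for Lamtor4 in R47H against WT without the pair (-0.21, against 0.057) and for Sesn2 in R47H against KO with matched sets (0.0049, limma adjusted p = 0.979, against -0.27). Same-numbered libraries correlated at -0.152 to 0.309 over 15 pairs (median 0.0446). Whether same-numbered libraries share more than a number was not tested. The fit with the replicate block, which uses WT Rep1 to Rep5 alone, called 2414 of all genes higher and 1981 lower in KO against WT. Those WT libraries without the block gave 2515 and 1993. Of the 36, 13 were higher and 3 lower with the block, and 14 and 5 without it. The lowest of the 36 genes, Slc38a9, varied by 4.25% in KO and 4.93% in WT libraries, so low depth was not visible in its spread. Estimated fragments of Atp6v0c and its copies cannot be told apart.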
